A study of Mus musculus with 18 samples.

Results

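Fibroblast growth factor 4 (Fgf4), its relatives Fgf15 and Fgf17, and the receptors Fgfr1, Fgfr2, Fgfr3 and Fgfr4 were followed through a comparison of mouse pluripotent cells kept by 2 different media. The 7 genes were picked by name, out of 55469 genes used, and each was read in all 18 RNA-Seq libraries. In short, Fgf4 was lower and Fgfr2 and Fgf15 were higher in cells kept by the reprogramming factors OSKM (Oct4, Sox2, Klf4 and c-Myc) than in cells kept by the inhibitor medium 2iL, and Fgfr1 stayed the most abundant receptor transcript in every library.

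Most FGFs are secreted ligands that bind receptor tyrosine kinases together with heparan sulfate. The activated receptors signal through adaptors and RAS to the MEK/ERK cascade. In early mouse embryos and embryonic stem cells (ESCs), FGF4 is made by the pluripotent cells themselves and acts through FGFR1 and FGFR2 to drive ERK signalling, which moves cells out of the naive state. The 2iL medium contains a MEK inhibitor (PD0325901), a GSK3 inhibitor (CHIR99021) and the cytokine LIF, so it blocks this cascade below the receptors.

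OSKM-ESCs and 2iL-ESCs came from 1 Tet-On-OSKM/Oct4-GFP line, from (C57BL/6 x 129S4/SvJae)F1 mice crossed with (CBA/CaJ X C57BL/6J)F2 mice, which carries M2rtTA at Rosa26, a doxycycline (DOX)-inducible polycistronic OSKM cassette at Col1a1 and GFP under the Oct4 distal promoter. OSKM-ESCs were moved from 2iL to N2B27 with DOX and no added inhibitor or cytokine, 2iL-ESCs stayed in 2iL without DOX, and 2 cultures of each were collected at days 18, 25 and 38. OSKM-iPSCs (clones 1 and 3, passages 7 and 6) and 2iL-iPSCs (clones 3 and 6, passages 2 and 3) were reprogrammed from Tet-On-OSKM embryonic fibroblasts of the strain (C57BL/6 x 129S4/SvJae)F1 in N2B27 with DOX or 2iL with DOX, and the 2 MEF libraries were such fibroblasts at passage 4 in DMEM with FBS. The labels give N2B27 with DOX as the routine medium of the 2iL-iPSCs, whereas the study's methods withdraw DOX from them after picking, so these clones are named here by their titles. Medium, DOX and transgene expression changed together and cannot be told apart, nor can passage and medium in the iPSCs. ESCs were derived, and fibroblasts reprogrammed, on mitomycin-treated MEF feeder cells. Nothing states that the 2 cultures of a day, or the cultures of different days, were started separately. The 6 ESC cultures of a medium came from 1 line over 3 days, so they are not known to be independent replicates. SDs and p-values over these cultures measure only the spread between them.

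Values are FPKM, fragments scaled to transcript length and to the mapped fragments of the library, which allow levels to be compared between genes. The depth in reads of a library is unknown from these values, and its median coverage per unit of FPKM lay between 5.01 and 6.07. All 10 pluripotent cell markers checked had an FPKM over 1 in every ESC and iPSC library and 1 of 10 did in MEF, whereas all 15 fibroblast markers did in MEF. The 10 pluripotent cell markers summed to 1460.6 to 2147 in OSKM-ESCs and 3076.5 to 3387.4 in 2iL-ESCs. Their sums were 1209 to 1912.7 in OSKM-iPSCs and 3032.2 to 3509.9 in 2iL-iPSCs. In ESCs over all days, 7 of the 10 were lower and 2 higher in OSKM-ESCs (limma, adjusted p under 0.05), against 24.4% and 29.5% of all genes. The summed FPKM of those 15 fibroblast markers was 2486 to 2672 in MEF, 30.2 to 74.1 in OSKM-ESCs (8 to 10 markers over 1), 5.45 to 8.12 in 2iL-ESCs, 174 in OSKM-iPSC clone 1, 8.97 in clone 3 and 5.67 to 7.90 in 2iL-iPSCs. The summed FPKM of 9 trophoblast markers was 24.4 in OSKM-iPSC clone 1 and 55.5 in clone 3, against 6.80 to 9.93 in 2iL-iPSCs and 7.46 to 34.7 in OSKM-ESCs. In OSKM-ESCs the largest mean of the 9 was that of Cdx2, 8.99 ± 12.7 (SD, n = 6). An FPKM over 1 was reached by 2 to 3 of the 9 in OSKM-ESCs and in 2iL-ESCs, and by 6 to 7 in OSKM-iPSCs.

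Fgf4 lies at chr7:144847367-144865243 on the plus strand of GRCm38. A classical enhancer of Fgf4, at which SOX2 and OCT4 bind side by side, sits in the last exon of the gene, and it is shown because SOX2 and OCT4 are 2 of the 4 factors switched on by DOX. A SOX-type site CTTTGTT and a POU-type site ATGCTAA, 3 bases apart, were searched for on both strands of the GENCODE M21 transcripts. They were found in exon 3 of an Fgf4 transcript, in its 3′ untranslated region, 3.01 kb after the transcript start, and 2 of 55450 genes held the pair in a transcript. In the 30 bases chr7:144864388-144864417 on the plus strand, the capitals mark the SOX-type and then the POU-type site.
Fgf4 element: aaaactCTTTGTTtggATGCTAAtgggata
The 250 bases before the RefSeq start of Fgf4, chr7:144861136-144861385 on the plus strand (GRCm38.p6), are shown because Fgf4 is the member that ranged from a listed 0 in fibroblasts to the highest level of the 7. The capitals mark 3 motifs searched on both strands. The GC box GGGCGG occurs at 2 places, the CCAAT box lies at 1 place on the other strand and so reads backwards here, and the last run in capitals holds 2 overlapping copies of the TATA-type motif TATATA.
Fgf4 promoter: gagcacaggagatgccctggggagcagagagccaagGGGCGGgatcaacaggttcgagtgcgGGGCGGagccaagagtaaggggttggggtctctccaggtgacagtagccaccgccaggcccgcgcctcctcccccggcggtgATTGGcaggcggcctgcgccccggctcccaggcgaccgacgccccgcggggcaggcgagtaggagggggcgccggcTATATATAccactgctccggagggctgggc
Of 32851 RefSeq promoters of this length, 32.7% held GGGCGG, 33.8% CCAAT and 5.25% TATATA, and 0 held the SOX and POU pair in the 300 bases that also take in 50 bases after the start. RefSeq windows were matched for 4 of the 7 genes (Fgf4, Fgfr2, Fgfr3 and Fgfr4). G and C made up 71.2% of the Fgf4 window, 44.0% of the Fgfr2 window and 64.0% of the Fgfr4 window, and the median window held 52.4%. The Fgfr2 window held 0 copies of the 3 motifs.

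Fgf4, the FGF of the naive epiblast, was the most abundant ligand of the 7 genes in every ESC and iPSC library and was lower in OSKM cells. In OSKM-ESCs its FPKM was 29.1 and 34.1 at day 18, 34.8 and 38.1 at day 25, and 25.0 and 22.5 at day 38. In 2iL-ESCs it was 53.7 and 65.6 at day 18, 136 and 145 at day 25, and 99.999 and 89.9 at day 38. Every OSKM culture was below every 2iL culture, and the 2iL cultures of different days spread more widely than the OSKM cultures. Taking the 3 days together, OSKM-ESCs averaged 30.6 ± 6.09 (SD, n = 6) and 2iL-ESCs 98.4 ± 36.7 (SD, n = 6), 3.21-fold more. The log2 fold change, OSKM minus 2iL on the log2(FPKM + 1) scale, was -1.59 ± 0.16 (SE; limma, adjusted p = 5.8e-06), and an exact 2-sided permutation test of the 6 against 6 cultures gave p = 0.0022, the smallest it can give. In the iPSCs, clones 1 and 3 of OSKM-iPSCs had 20.6 and 37.3, and clones 3 and 6 of 2iL-iPSCs 77.2 and 80.9. The iPSC clones therefore fell in the same order as the ESCs, with no overlap. Fgf4 was listed at 0 in both MEF libraries.

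**Figure D1:**
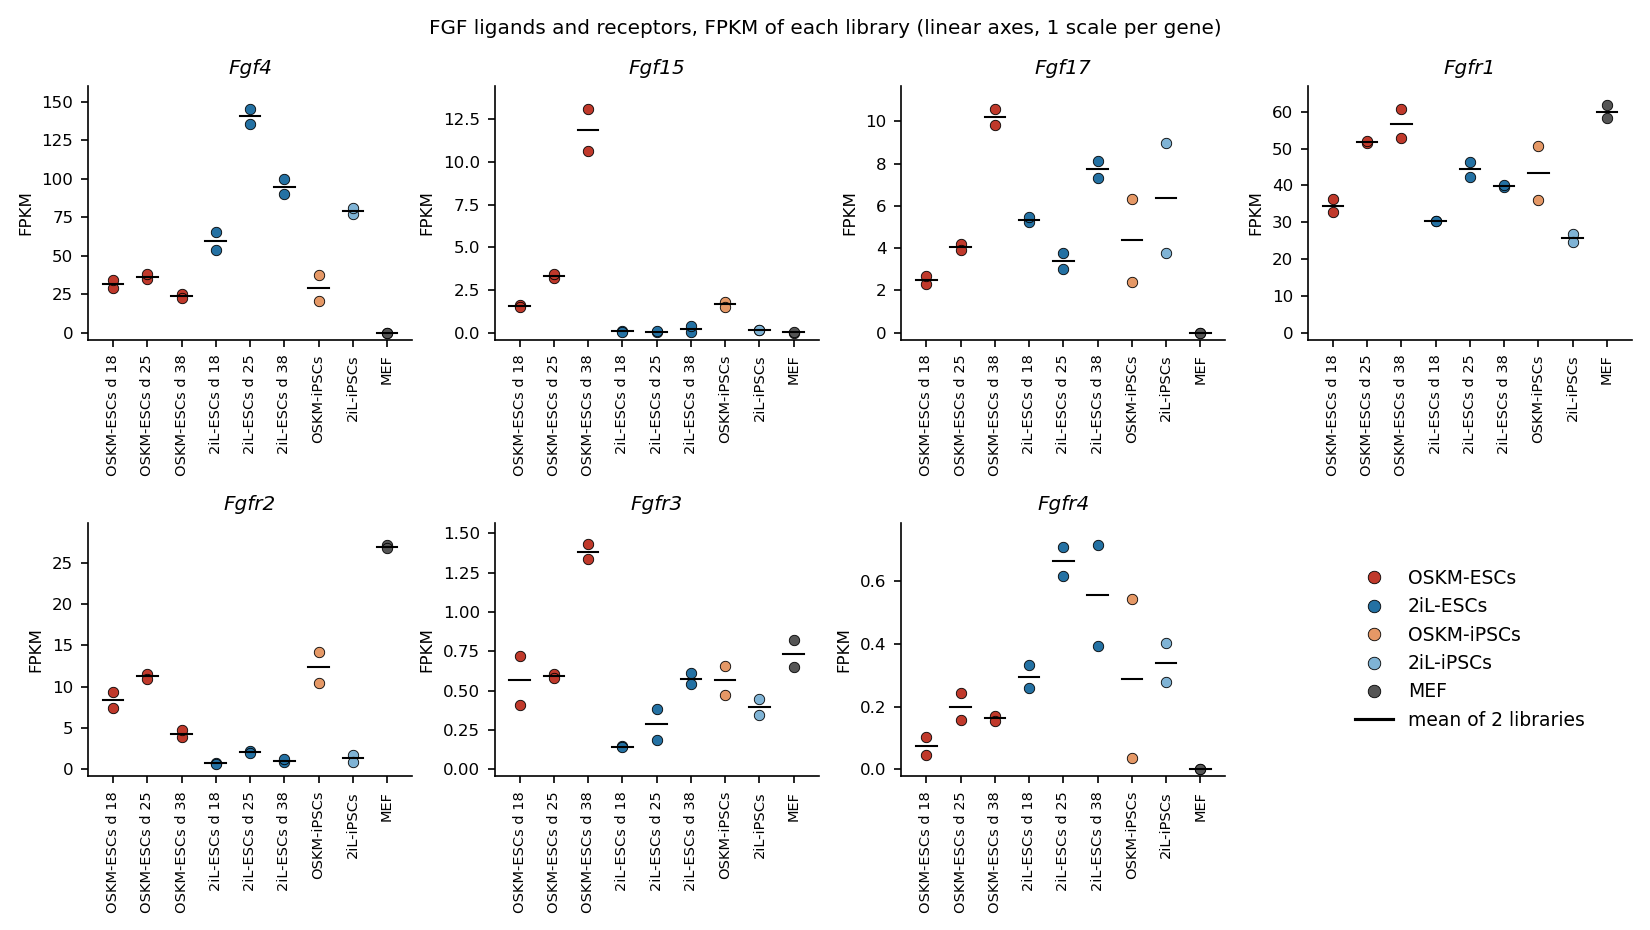
FPKM of each of the 7 genes (vertical axis, linear, its own scale per gene) in the 9 groups (horizontal axis), with a point per library and a bar at the mean of 2 libraries. Fgf4 was highest in 2iL-ESCs at day 25 (136 and 145) and listed at 0 in MEF, Fgf15 was highest in OSKM-ESCs at day 38 (10.7 and 13.1), and Fgfr2 was above 3.8 in every OSKM-ESC and OSKM-iPSC library and below 2.2 in every 2iL library.

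Fgf15 (chr7:144896531-144900953, plus strand), known as a gut hormone that restrains bile acid synthesis and as a ligand made in the embryonic brain, went the other way. In OSKM-ESCs it had an FPKM of 1.64 and 1.52 at day 18, 3.23 and 3.44 at day 25, and 10.7 and 13.1 at day 38. In 2iL-ESCs all 6 cultures lay between 0.024 and 0.41, with a median of 0.093. The groups did not overlap, and within OSKM-ESCs each later day was above the one before. The log2 fold change was 2.22 ± 0.28 (SE; limma, adjusted p = 3.6e-05), which understates the ratio of such low values (the means were 5.60 and 0.134). Fgf15 passed the filter of an FPKM over 1 only through OSKM libraries, so a difference was built into its being tested. OSKM-iPSC clones had 1.81 and 1.53 and 2iL-iPSC clones 0.171 and 0.181, a difference of 1.18 (adjusted p = 0.063), and MEF had 0 and 0.029. The annotated genes on the opposite strand of Fgf15, Gm26793 and Gm39119, had means of 0.0098 and 0.11 in OSKM-ESCs, and the library kit is not stated to keep strand.

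Fgf17 (chr14:70636203-70642268, minus strand), an FGF8-like ligand of the midbrain and hindbrain region, did not pass the test over all days but changed with the day in both media. OSKM-ESCs had 2.32 and 2.69 at day 18, 4.22 and 3.94 at day 25, and 10.6 and 9.81 at day 38. 2iL-ESCs had 5.23 and 5.47 at day 18, 3.00 and 3.78 at day 25, and 7.32 and 8.12 at day 38. The OSKM cultures were therefore below the 2iL cultures at day 18 and above them at days 25 and 38. Over all days the log2 fold change was -0.10 ± 0.18 (SE; limma, adjusted p = 0.68), with a 95% interval from -0.48 to 0.29. Clones within each iPSC group differed more than the groups did, with 6.33 and 2.41 in OSKM-iPSCs and 3.79 and 8.97 in 2iL-iPSCs. It was listed at 0 in both MEF libraries.

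Fgfr1 (chr8:25513654-25575718, plus strand), the main FGF receptor of the epiblast, was the most abundant receptor in all 18 libraries. OSKM-ESCs had 32.9 and 36.2 at day 18, 51.5 and 52.1 at day 25, and 60.7 and 52.9 at day 38. 2iL-ESCs had 30.3 and 30.4 at day 18, 42.4 and 46.4 at day 25, and 39.5 and 40.0 at day 38. Within each day the OSKM cultures were the higher ones, but across days the groups overlapped. The log2 fold change over all days, with day in the model, was 0.30 ± 0.07 (SE; limma, adjusted p = 0.0029), and the exact 2-sided permutation test that ignores day gave p = 0.11. Fgfr1 had 50.8 and 36.0 in OSKM-iPSCs, 26.8 and 24.6 in 2iL-iPSCs, and 58.2 and 61.9 in MEF.

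Fgfr2, a receptor better known from epithelia, trophoblast and primitive endoderm, showed the largest difference among the receptors. Its FPKM in OSKM-ESCs was 7.36 and 9.32 at day 18, 11.6 and 10.9 at day 25, and 3.86 and 4.75 at day 38. In 2iL-ESCs it was 0.794 and 0.627 at day 18, 2.19 and 1.91 at day 25, and 0.906 and 1.20 at day 38. No values overlapped, and both media were highest at day 25. The means were 7.97 ± 3.20 (SD, n = 6) and 1.27 ± 0.64 (SD, n = 6), 6.27-fold higher in OSKM-ESCs, with a log2 fold change of 1.94 ± 0.16 (SE; limma, adjusted p = 1.0e-06). The exact 2-sided permutation test gave p = 0.0022. OSKM-iPSC clones 1 and 3 had 10.5 and 14.2, 2iL-iPSC clones 3 and 6 had 1.74 and 0.935, and MEF had the highest values, 27.1 and 26.8.

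Because MEF held more Fgfr2 than any pluripotent library, and fibroblast markers were higher in OSKM-ESCs, each library was given a fibroblast scale, the median of the 15 markers relative to MEF. The scale was 1.79% to 3.14% in OSKM-ESCs, 0.130% to 0.331% in 2iL-ESCs, 6.27% in OSKM-iPSC clone 1, 0.0922% in clone 3 and at most 0.104% in 2iL-iPSCs. The MEF level of Fgfr2 times this scale came to 0.483 to 0.845 FPKM in OSKM-ESCs, 1.69 in clone 1 and 0.0248 in clone 3, and 3.86 to 14.2 was measured in them. The markers did not share 1 ratio to MEF. Twist1 had means of 2.24 in OSKM-ESCs and 25.8 in MEF, and Prrx1 had 0.436 and 97.7. Beyond this median scale, the part of fibroblast RNA in the Fgfr2 difference was not tested. With each gene's own MEF mean times the scale taken off that gene, the log2 fold change of Fgfr2 in ESCs was 1.87 (limma, adjusted p = 3.5e-06). In bulk RNA, fewer cells of a type and less RNA per cell cannot be told apart. Fgfr2 is annotated at chr7:130162451-133123350 on the minus strand, a span of 2961 kb that overlaps 70 other genes, 21 of them with an FPKM over 1 in a library. The highest of these, Ctbp2 on the same strand, had a mean of 135 in OSKM-ESCs, 102 in 2iL-ESCs and 28.6 in MEF. Chst15, also on that strand, had means of 3.47 in OSKM-ESCs, 0.260 in 2iL-ESCs and 2.02 in MEF. Its means in the iPSCs were 5.08 in OSKM-iPSCs and 0.452 in 2iL-iPSCs. Whether reads were split correctly between the genes was not tested.

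Fgfr3 (chr5:33721674-33737068, plus strand), a receptor best known from cartilage, stayed low. OSKM-ESCs lay between 0.41 and 1.43 with a median of 0.663, and only the 2 day 38 cultures (1.43 and 1.33) passed an FPKM of 1, so Fgfr3 too was tested only through the group in which it was high. 2iL-ESCs lay between 0.140 and 0.610 with a median of 0.287. The log2 fold change was 0.45 ± 0.09 (SE; limma, adjusted p = 0.0016), and the groups overlapped. Fgfr4 (chr13:55152640-55168759, plus strand), a receptor of liver and endoderm, lay between 0.044 and 0.243 in OSKM-ESCs and between 0.258 and 0.714 in 2iL-ESCs, was listed at 0 in MEF, and passed the filter in no comparison. The OSKM and 2iL cultures of Fgfr4 did not overlap (exact 2-sided permutation test, p = 0.0022), at levels under 1 FPKM in all of them.

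Over all days, 5 of the 6 members tested passed the adjusted threshold of 0.05, 4 higher and 1 lower in OSKM-ESCs, against 53.8% of 14016 genes tested, so a call by itself sets no member apart. Genes called higher were 29.5% of those tested and genes called lower 24.4%. By family means, Fgf4 ran 2iL-ESCs, 2iL-iPSCs, OSKM-ESCs, OSKM-iPSCs, MEF, and both 2iL groups overlapped each other, as did both OSKM groups. Fgfr2 ran MEF, OSKM-iPSCs, OSKM-ESCs, 2iL-iPSCs, 2iL-ESCs, with the same overlaps. For Fgfr1 the order was MEF, OSKM-ESCs, OSKM-iPSCs, 2iL-ESCs, 2iL-iPSCs, and only the last step showed no overlap between neighbours. For Fgf17 the only neighbours that did not overlap were OSKM-iPSCs and MEF.

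**Figure D2:**
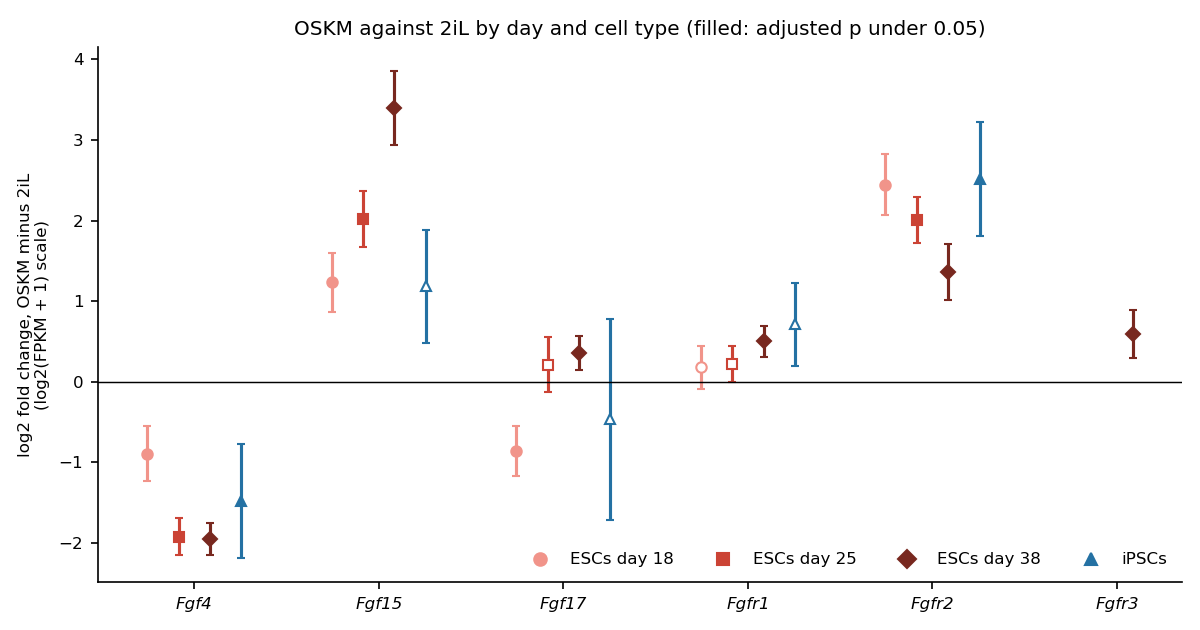
Log2 fold change, OSKM minus 2iL on the log2(FPKM + 1) scale (vertical axis), of the 6 members tested, for ESCs at days 18, 25 and 38 and for iPSCs, with 95% intervals from limma and filled symbols where the adjusted p was under 0.05. Fgf4 was below 0 and Fgf15 and Fgfr2 above 0 in all 4 comparisons, and Fgf17 went from -0.86 at day 18 to 0.36 at day 38.

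The size of the medium difference changed with the day for 4 of 6 members tested (limma, test of medium by day), against 37.9% of all genes tested. The difference of Fgf4 was -0.89 at day 18, -1.92 at day 25 and -1.95 at day 38 (interaction adjusted p = 0.0015). That of Fgf15 was 1.23, 2.02 and 3.39 (interaction adjusted p = 0.00023), a call that a pseudocount of 0.1 ended (adjusted p = 0.074). Fgfr2 went the other way, with 2.44, 2.01 and 1.37 (interaction adjusted p = 0.0064). The gap in Fgf4 and Fgf15 was thus wider at day 38 than at day 18, and the gap in Fgfr2 was narrower. For Fgf17 the day 18 difference was -0.86 (adjusted p = 0.0027), that of day 25 was 0.21 (adjusted p = 0.25) and that of day 38 was 0.36 (adjusted p = 0.015), with an interaction adjusted p of 0.00067. Fgfr1 (0.18, 0.22 and 0.50, interaction adjusted p = 0.096) and Fgfr3 (interaction adjusted p = 0.42) did not pass this test.

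Within single days, 4 of 5 members tested passed at day 18, 3 of 5 at day 25 and 6 of 6 at day 38, against 43.4%, 46% and 59.8% of all genes. At day 18, 2 members were higher and 2 lower (25.7% and 17.7% of genes). At day 25, 2 were higher and 1 lower (20.7% and 25.3%), and at day 38, 5 higher and 1 lower (34.6% and 25.2%). Fgf15 and Fgfr2, the higher members of day 18, passed that day's filter only through OSKM-ESCs. So did Fgf15 at days 25 and 38 and Fgfr3 at day 38. A difference was therefore built into their being tested on those days. At day 18 the calls of Fgf4 and Fgf17 were lost without 2iL-ESC culture 2 (adjusted p = 0.054 and 0.0501). At day 38 the call of Fgf17 was lost without OSKM-ESC culture 1 (adjusted p = 0.11), without OSKM-ESC culture 2 (adjusted p = 0.066), without 2iL-ESC culture 1 (adjusted p = 0.086), after quantile normalization (adjusted p = 0.080) and in a single fit of all 9 groups (adjusted p = 0.40).

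Among days of one medium, all 6 members tested differed in OSKM-ESCs, against 38.6% of genes, and all 4 tested in 2iL-ESCs, against 50.8%. From day 18 to day 38 in OSKM-ESCs, mean Fgf15 was 7.54-fold, Fgf17 4.07-fold, Fgfr3 2.44-fold and Fgfr1 1.64-fold higher, and Fgfr2 went from 8.34 to 4.30. In 2iL-ESCs mean Fgf4 went from 59.7 at day 18 to 141 at day 25 and 94.9 at day 38. The 2iL-ESCs had not changed medium, and what differed between their days is not given in the labels. The Fgf4 call in OSKM-ESCs was lost without day 38 culture 1 or 2 (adjusted p = 0.086 and 0.15), and that of Fgfr3 without 5 of the 6 cultures (adjusted p from 0.054 to 0.16). The Fgfr2 call in 2iL-ESCs was lost without day 25 culture 1 (adjusted p = 0.055).

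In the iPSCs, 2 of 5 members tested passed the threshold, 1 higher and 1 lower, against 7.96% of 13653 genes (5% higher and 2.96% lower). Fgf4 was lower in OSKM-iPSCs by -1.48 ± 0.28 (SE; limma, adjusted p = 0.041) and Fgfr2 higher by 2.52 ± 0.28 (SE; limma, adjusted p = 0.015). Fgf15 (1.18, adjusted p = 0.063), Fgfr1 (0.72, adjusted p = 0.092) and Fgf17 (-0.47, adjusted p = 0.56) did not pass. Fibroblast markers stood out in OSKM-iPSC clone 1. With the fibroblast share taken off, the difference of Fgfr2 was 2.41 (limma, adjusted p = 0.032). That of Fgf4 could not change, since Fgf4 was listed at 0 in MEF, and it stayed at -1.48 (limma, adjusted p = 0.055). Without limma's trend the Fgf4 call was lost (adjusted p = 0.062) and Fgf15 was called (adjusted p = 0.036). Both calls were lost without 2iL-iPSC clone 3 (adjusted p = 0.33 for Fgf4 and 0.32 for Fgfr2) and without clone 6 (adjusted p = 0.35 and 0.32). Without OSKM-iPSC clone 3, the one with little fibroblast RNA, 4 members passed, Fgf15 (adjusted p = 0.035) and Fgfr1 (adjusted p = 0.044) among them. Trophoblast also expresses Fgfr2, and of its 9 markers 7 were tested in the iPSCs, 5 of them only through OSKM clones. Of the 7, Krt7 was called higher (9.40 and 10.7 against 0.578 and 0.381) and 6 were not called, among them Eomes (1.89 and 1.34 against 3.15 and 2.86), and their part in the Fgfr2 difference was not tested.

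Against MEF, the starting cells of reprogramming, the iPSC groups are given side by side, since both were compared with the same 2 MEF libraries. In OSKM-iPSCs 4 of 5 members tested passed, 3 higher and 1 lower, against 60.3% of genes (34% and 26.4%), and in 2iL-iPSCs 4 of 4, 2 in each direction, against 78% of genes (40.6% and 37.4%). Fgf4 and Fgf17, listed at 0 in MEF, were called higher in OSKM-iPSCs (adjusted p = 0.0015 and 0.011) and in 2iL-iPSCs (adjusted p = 7.3e-06 and 0.0014). They were tested only through the iPSC clones, as was Fgf15 in OSKM-iPSCs, so these calls were favoured by the filter. The Fgf17 call in 2iL-iPSCs was lost without MEF library 1 (adjusted p = 0.071) and without MEF library 2 (adjusted p = 0.070). Fgfr2 was lower than in MEF by -1.08 in OSKM-iPSCs (adjusted p = 0.0088) and by -3.60 in 2iL-iPSCs (adjusted p = 8.0e-05), a mean 2.18-fold and 20.1-fold lower. Fgfr1 differed by -0.48 in OSKM-iPSCs (adjusted p = 0.094) and by -1.19 in 2iL-iPSCs (adjusted p = 0.00031). For Fgfr1, OSKM-iPSCs against MEF, median-ratio scaling, which moved the median of all genes from 0.187 to 0.02, put the difference at -0.67 (adjusted p = 0.037). Without MEF library 1 or without MEF library 2, 0 of the 5 members passed in OSKM-iPSCs by limma, where each had an unadjusted p under 0.05 except Fgfr1.

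**Figure D3:**
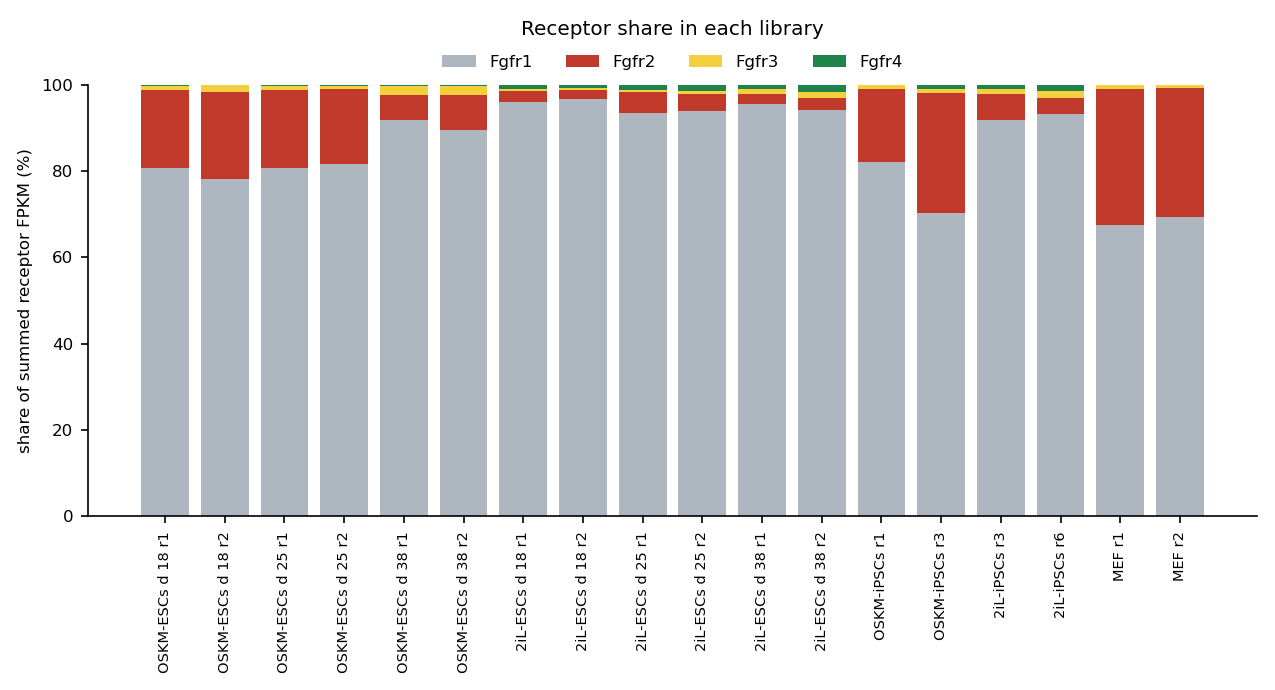
Share of each receptor (vertical axis, percent of the summed FPKM of Fgfr1 to Fgfr4) in each of the 18 libraries (r is the culture, clone or library number). Fgfr2 took 5.83% to 20.1% in OSKM-ESCs, 1.99% to 4.83% in 2iL-ESCs and 29.95% to 31.5% in MEF.

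The receptors were then set against each other within each library. Fgfr2 made up 18.1% and 20.1% of the summed receptor FPKM in OSKM-ESCs at day 18, 18.1% and 17.2% at day 25, and 5.83% and 8.04% at day 38. In 2iL-ESCs its share lay between 1.99% and 4.83%. OSKM-ESCs had a mean Fgfr2 share of 14.6% ± 6.02 (SD, n = 6), against 3.04% ± 1.10 (SD, n = 6) for 2iL-ESCs, and the Fgfr1 share 83.7% ± 5.49 and 94.9% ± 1.33. Both shares kept the groups apart, and the OSKM cultures of day 38 were the nearest to 2iL. OSKM-iPSC clones 1 and 3 had Fgfr2 shares of 16.9% and 27.7%, and 2iL-iPSC clones 3 and 6 of 5.97% and 3.55%. The summed receptor FPKM was 40.7 to 66.2 in OSKM-ESCs and 31.4 to 49.4 in 2iL-ESCs.

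Fgf4 and Fgf15 are neighbours. Of the 14 genes annotated within the 250 kb searched around Fgf4, 5 were tested in ESCs. Fgf15 begins 31.3 kb after the end of Fgf4, with the same orientation. Fgf3, the FGF upstream of Fgf4, differed by -0.09 on the log2 scale over all days (adjusted p = 0.79), but by -0.75 at day 25 (adjusted p = 0.031) and by 1.06 at day 38 (adjusted p = 0.0026), with an interaction adjusted p of 0.00089. Its mean FPKM at day 18 was 0.190 in OSKM-ESCs and 0.797 in 2iL-ESCs, below the filter. At day 25 Fgf3 had 0.985 and 1.75 in 2iL-ESCs and 0.470 and 0.311 in OSKM-ESCs. It thus passed the filter of that day through a single 2iL-ESC culture, so its lower call there was favoured by the filter. LTO1, beyond Fgf15, differed by 0.13 (adjusted p = 0.43). Ccnd1, the gene of cyclin D1, which drives entry into S phase, starts 92.6 kb away and was higher in OSKM-ESCs by 1.44 (limma, adjusted p = 6.0e-05), with means of 64.5 ± 9.79 and 24.4 ± 9.61 (SD, n = 6 each). Over all days Fgf4 was therefore lower, Fgf15 and Ccnd1 were higher, and Fgf3 and LTO1 did not pass, Fgf3 with opposite directions at days 25 and 38.

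**Figure D4:**
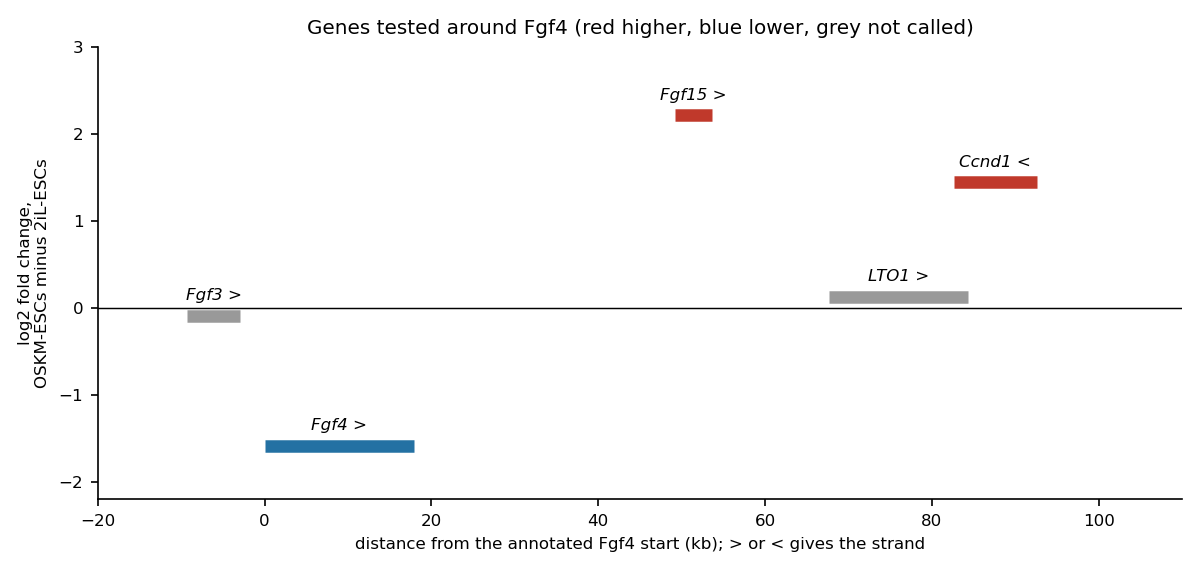
Log2 fold change, OSKM-ESCs minus 2iL-ESCs over all days (vertical axis), of the 5 genes tested around Fgf4, drawn as bars over their annotated extent in kb from the Fgf4 start (horizontal axis). Fgf4 lies at -1.59 and Fgf15 at 2.22, with Fgf3 (averaged over days of opposite direction) at -0.09, LTO1 at 0.13 and Ccnd1 at 1.44.

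Of the 22 FGF family genes listed, 10 were tested in ESCs over all days, 5 of them higher and 3 lower in OSKM-ESCs. Their median was 0.20 against 0.03 over all genes, of which 29.5% were called higher and 24.4% lower. Of the 10, Fgf5, Fgf8, Fgf15 and Fgf18 passed the filter only through OSKM-ESCs and Fgf10 and Fgf11 only through 2iL-ESCs, so for these 6 a difference was built into their being tested, and their calls are no support for one. Fgf8, a ligand of gastrulation and limb and brain organisers, had the largest difference. Its FPKM in OSKM-ESCs was 9.10 and 12.5 at day 18, 6.83 and 4.07 at day 25, and 51.6 and 47.8 at day 38, and 2iL-ESCs lay between 0 and 0.40. The log2 fold change was 3.70 ± 0.40 (SE; limma, adjusted p = 9.9e-06), and by mean FPKM the ligand order at day 38 in OSKM-ESCs put Fgf8 above Fgf4. Fgf5, a marker of primed epiblast, lay between 2.41 and 6.10 in OSKM-ESCs and was listed at 0 in 5 of 6 2iL-ESC cultures (2.24 ± 0.14, limma, adjusted p = 1.1e-07). Fgf18 (1.09) and Fgf13 (0.49) were also higher, and Fgf10 (-0.72) and Fgf11 (-0.58) were lower together with Fgf4. In the iPSCs, Fgf8 (1.88, adjusted p = 0.029) and Fgf5 (1.69, adjusted p = 0.030) were also called higher, again after passing the filter only through the OSKM clones, and Fgf3 was listed at 0 in both OSKM-iPSC clones and had 1.35 and 1.51 in 2iL-iPSCs. Fgf2 and Fgf7, ligands of mesenchymal cells, passed an FPKM of 1 only in MEF, with means of 2.26 and 22.8.

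**Figure D5:**
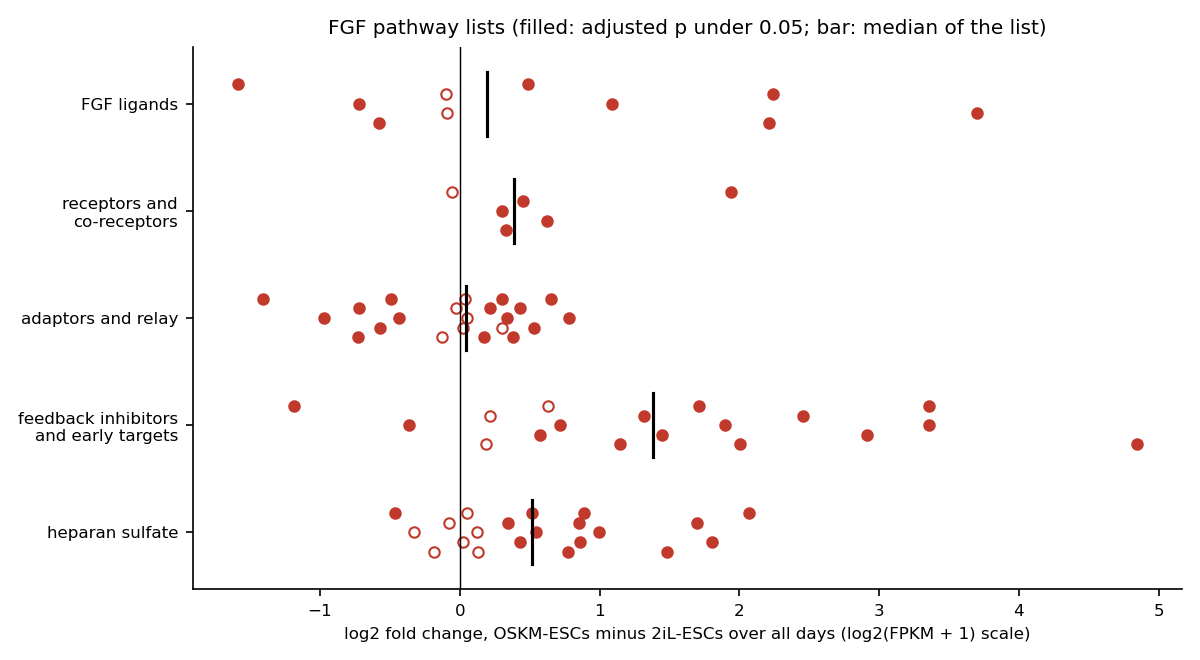
Log2 fold change, OSKM-ESCs minus 2iL-ESCs over all days (horizontal axis), of each tested gene of 5 FGF pathway lists, a point per gene, filled where limma's adjusted p was under 0.05, with a bar at the median of the list. The feedback and early target list had a median of 1.38, and the adaptors had one of 0.05.

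Of the 10 receptors and co-receptors, 6 were tested, 2 of them only through OSKM-ESCs, and 5 were higher, against 29.5% of all genes, with a median of 0.39. After Fgfr2, the largest difference was that of Fgfrl1, an FGF-binding receptor without a kinase domain (2.84 ± 0.99 against 1.45 ± 0.40 FPKM, log2 fold change 0.63, limma, adjusted p = 0.0023). Klb, the co-receptor through which FGF15 acts in liver, did not pass the filter and had means of 0.017 in OSKM-ESCs and 0.27 in 2iL-ESCs. Heparan sulfate genes make and carry the sugar chains that FGFs need. They were higher for 13 and lower for 1 of 21 tested (29.5% and 24.4% of all genes), with a median of 0.52. Of the 21, 2 passed the filter only through OSKM-ESCs, and these were among the 13 called higher. Gpc1, a glypican, rose by 2.07, Hs6st2, a 6-O-sulfotransferase, by 1.80, and Sulf1, which removes such sulfates, by 1.70, and Hs6st1 was the lower one, with -0.46. MEF also held these genes, with Gpc1 at 22.5, Hs6st2 at 28.9 and Sulf1 at 70.3, and the part of fibroblast RNA in their differences was not tested.

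The adaptors and kinases below the receptors moved in both directions, with 9 higher, 7 lower and 6 not called of 22 tested (29.5% of all genes higher and 24.4% lower) and a median of 0.05. Gab1, a docking protein, was lower by -1.41, with means of 32.1 ± 14.5 and 81.0 ± 6.78 FPKM (SD, n = 6 each). Ksr1, a scaffold of the cascade, was lower by -0.97, and Map2k1, which encodes MEK1, by -0.73. Sos2 (0.78), Mapk3, which encodes ERK1 (0.65), and Hras (0.53) were higher.

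Of the feedback inhibitors and early targets of the cascade, 13 were higher, 2 lower and 3 not called among 18 tested, against 29.5% of all genes higher and 24.4% lower. The list had a median of 1.38, against 0.03 for all genes. Egr1, an immediate early transcription factor, had the largest difference, 60.5 ± 26.8 FPKM in OSKM-ESCs against 2.05 ± 3.12 in 2iL-ESCs (SD, n = 6 each, log2 fold change 4.85, limma, adjusted p = 2.9e-08). Dusp4, a phosphatase that acts on ERK, had 20.9 ± 2.77 against 1.17 ± 0.55 (3.36, adjusted p = 3.0e-09), and Dusp6 had 36.0 ± 4.13 against 5.76 ± 0.69 (2.45, adjusted p = 3.2e-09). Myc was higher by 3.35, but the OSKM cassette encodes c-Myc, and its reads were not separated from those of the endogenous gene. Etv5 (-0.37) and Ier3 (-1.19) were the lower ones, and Etv4 did not pass (0.63, adjusted p = 0.054). In iPSCs 5 of 18 were higher and 1 lower, against 5% and 2.96% of all genes. Dusp4 (2.60, adjusted p = 0.018) and Egr1 (2.58, adjusted p = 0.013), both tested only through OSKM clones, and Myc, Dusp6 and Spry1 were higher, and Spry2 was lower with -0.87 (adjusted p = 0.043), whereas in ESCs Spry2 was higher with 0.57. The Spry2 difference between ESCs and iPSCs was not tested.

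Markers of other states were also read. All 8 formative and primed epiblast markers tested were higher in OSKM-ESCs, with a summed FPKM of 345 to 687 against 148 to 175 in 2iL-ESCs, 2 of them tested only through OSKM-ESCs. For this and the marker lists below, 29.5% of all genes tested were called higher and 24.4% lower. Of 10 primitive endoderm markers 5 were tested, 4 of these only through OSKM-ESCs, and 4 were called higher, with sums of 8.85 to 17.4 against 2.48 to 4.67. Most of the sum was Col4a1 (means of 6.82 and 1.66), which fibroblasts also express (177 in MEF, where the list summed to 255 to 256), and Gata4 had means of 0.417 and 0.458. Of 8 neural progenitor markers 6 were tested, 4 of these only through OSKM-ESCs, and 4 were called higher and 1 lower. The 8 summed to 39.5 to 63.7 in OSKM-ESCs and 47.8 to 69.7 in 2iL-ESCs. The part of these states in the values of Fgf4 and Fgfr2 was not tested.

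Lastly, genes with the most similar profile were looked up for each member that passed an FPKM of 1 in at least 2 of the 16 ESC and iPSC libraries, by Pearson's r of log2(FPKM + 1) over 13780 genes. The libraries share cell line, media and days, and r is given as a description. The closest to Fgf4 were Helb (r = 0.975), Gm29630, Cpt1a, Upp1 and Sec1 (r = 0.964), and Upp1, uridine phosphorylase, had mean FPKM of 29.6 in OSKM-ESCs and 244 in 2iL-ESCs. These lists depended on leaving MEF out. Over all 18 libraries, r with Fgf4 was 0.973 for Helb and 0.947 for Upp1, but 0.804 for Sec1, 0.215 for Gm29630 and 0.196 for Cpt1a. For Fgf17 it was 0.94 with Hax1 and -0.23 with Rusc1. The closest to Fgf15 were Lhfpl4 (r = 0.988), Snph and Dchs1, to Fgf17 Hax1 (r = 0.842), Rusc1 and Hmg20b, and to Fgfr1 Maml1 (r = 0.959), Evl and Zfp609. The closest to Fgfr2 were Slc9a7 (r = 0.979), Igdcc4 and Kcnk1, and the closest to Fgfr3 were Six5 (r = 0.916), Gpr153 and Crabp2. Among the members themselves, r over the same 16 libraries was -0.81 for Fgf4 with Fgf15, -0.71 for Fgf4 with Fgfr2 and 0.87 for Fgf15 with Fgfr3, and the last pair was highest in the 2 OSKM-ESC cultures of day 38.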

How the data were processed

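RNA-Seq was read from 18 libraries in 9 groups. The authors aligned reads to GRCm38 with STAR 2.7.1a, kept uniquely mapped reads and ran StringTie 2.0, and the annotation release is not given in the sources used here. The deposited FPKM values were used as deposited. Coverage, which the authors deposited beside it, is the unscaled mean depth over the bases of each gene and served only to compare libraries. TPM as the authors deposited it was an alternative, and it was recomputed from FPKM in 2 libraries, where 1 gene each had a failed value. Those 2 genes (U2surp and St13) were left out, and values of 11 gene IDs listed more than once were summed. Cuffdiff 2.2.1 is also named in the submitters' processing notes but needs reads.

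Using R 4.3.3 with limma 3.58.1, lmFit and eBayes with trend were run on log2(FPKM + 1). A gene was kept if 1 or more of the compared libraries exceeded an FPKM of 1, and the Benjamini-Hochberg adjustment covered every gene kept. Fits held only the groups compared, and the fit across days had day as a covariate. Permutation tests (exact, 2-sided) and shares used Python 3.11.15 with scipy 1.17.1. Scripts were tested on simulated data. Gene positions are those of the deposited files, and transcripts are from GENCODE M21, both on GRCm38. Members and gene lists were chosen with earlier results of these data known. Named besides the members were up to 3 higher and 3 lower genes per pathway list with the largest change in ESCs over all days, other ligands with an FPKM over 1 in at least 2 libraries, and the genes nearest each member in profile (5 for Fgf4, 3 for others). Genes named outside this rule (the neighbours of Fgf4, Ctbp2, Chst15, Nkx1-2, Klb, Cdx2, Twist1, Prrx1, Krt7, Eomes, Col4a1, Gata4, Etv4, Dusp6, Spry1 and Spry2) were chosen after their values were seen. Alternatives were a pseudocount of 0.1, other filters, scalings, TPM, no trend, a single fit, the replicate block, and leaving out each library. An alternative with the fibroblast share taken off was added after seeing the data.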

Additional observations from a re-analysis of the deposited data

Results flagged for a closer look

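In 2iL-ESCs, the second culture of day 38 stood apart for Fgf15, with an FPKM of 0.415 (0.41454) against 0.0236 to 0.124 in the 5 others. The 7 genes were looked at in both ESC groups, 14 groups of 6 cultures, and this was the 1 culture found. By chance about 1 in 20 such groups would be picked out, and the value itself is below an FPKM of 1.

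The medium difference depended on the day, by the limma test of medium by day in ESCs, for Fgf4 (adjusted p = 0.0015), Fgf15 (adjusted p = 0.00023, and 0.074 with a pseudocount of 0.1), Fgf17 (adjusted p = 0.00067) and Fgfr2 (adjusted p = 0.0064), 4 of the 6 members tested. For Fgf17 both OSKM-ESC cultures were below both 2iL-ESC cultures at day 18 and above them at day 38.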

How the results depend on the processing

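Of 757 values of single members under the alternatives, 705 kept their direction and their side of the threshold, 39 lost a call, 9 gained one and 4 turned direction. The 4 were all Fgf17 differences that had not passed: leaving out 1 library each gave -0.17 to 0.02 in ESCs over all days (0.0196 and 0.0072 where it turned) and -1.02 to 0.08 in iPSCs (0.0846 and 0.0629 where it turned). The 2 calls of the iPSC comparison became 0 by limma without the filter on low values (4 of 7 members at an unadjusted p under 0.05), 1 after quantile normalization, 1 with the fibroblast share taken off (chosen after seeing the data) and 4 with all 9 groups in a single fit, stayed at 2 without the trend with Fgf15 in place of Fgf4, and were 0 to 4 with 1 clone left out (0 without either 2iL-iPSC clone, 3 of 5 members at an unadjusted p under 0.05). Leaving out 1 library gave 2 to 4 calls at day 18 and 0 to 5 in OSKM-iPSCs against MEF. Over all genes, the iPSC comparison called 1087 of 13653 in the main fit and 0 of 25331 without the filter on low values. That count was 862 after quantile normalization, 807 with the fibroblast share taken off, 951 without the trend and 6143 in the single fit. The Fgfr3 share difference of 0.6651 percentage points passed with media permuted within days, with sign flips of same-numbered pairs and without 4 of the 12 libraries, and was 0.508 to 0.791 with 1 library left out. The Fgf15 test of medium by day was lost at a pseudocount of 0.1 (adjusted p = 0.074). The cause of these changes was not tested. With 1 sample left in a group, that sample was assumed to vary like the other groups.

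The replicate block, which treats same-numbered cultures of a day as pairs, left the ESC counts at 5 over all days, 4 at day 18, 3 at day 25 and 6 at day 38. It called 6673 of 14016 genes over all days, 6531 of 12774 at day 18, 6539 of 13098 at day 25 and 7538 of 13142 at day 38. Deviations of same-numbered cultures correlated at r = 0.131, 0.0904 and 0.012 on days 18, 25 and 38, not over 0.1 on each, so the numbers were not taken to pair the cultures. Depth in reads was unknown, so no counting error could be given for the values under an FPKM of 1 (Fgfr4 in every library, Fgf15 in 2iL cells).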
